A study of Mus musculus with 5 samples.

Results

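Tumor cells of mice given anti–PD-1 plus anti-CTLA4, called CPI, were compared with those of mice given isotype antibodies, called Isotype, in the arms of the study that received vehicle and no ABT-317. The tumors were MC38, a mouse colon adenocarcinoma line grown under the skin. A barcode, the tag of a droplet that stands for a cell, was a member when it had at least 200 genes, less than 10% of its UMIs in mitochondrial genes, and a hashtag of CPI or Isotype that led the next of the 4 hashtags of its reaction by at least 1 natural log unit after each was centred on its median. There were 11342 such barcodes among 57094 that passed the gene and mitochondrial limits. Of these, 3545 in reaction 1 and 2359 in reaction 2 carried the CPI hashtag, and 3333 and 2105 carried the Isotype hashtag. A further 15923 barcodes carried a hashtag of the arms with ABT-317, a JAK1 inhibitor, and 29829 had no called hashtag.

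All mice were male wild-type C57BL/6J animals, 8 to 10 weeks old, with 1000000 MC38 cells implanted s.c. The CPI mice were injected i.p. with both blocking antibodies on day 3, day 6 and day 9, and the Isotype mice with isotype antibodies on the same days. The study counts these days from implantation in its single-cell methods, but from enrolment at a minimal tumor size in its account of the MC38 experiment, so day 0 is not certain. Both groups received DPBS vehicle on day 12, when the other arms received ABT-317 at 20 mg/kg, and tumors were taken on day 15. Live CD45+ and CD45- cells were sorted apart, stained with hashtag antibodies, mixed in equal numbers and loaded at 60000 cells per reaction, so the balance of immune and other cells was set by the sort and shares are given within CD45-high or within CD45-low barcodes. In the deposited key a hashtag names a treatment and not a mouse. The study used several tumors per group and describes the hashtags as marking samples as well as treatments, but which mice each reaction holds is not stated. Each value per group is therefore a sum over barcodes of 1 reaction (n = 2 sums per group). The p-values measure the spread between such sums, which may be technical. The gene and antibody fits estimated this spread over the ABT-317 arms too, from each sum with at least 20 barcodes.

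PD-1 and CTLA4 are inhibitory receptors of T cells. PD-1 is engaged by PD-L1 (Cd274) and PD-L2 (Pdcd1lg2) on tumor and myeloid cells, whereas CTLA4 binds Cd80 and Cd86 on antigen-presenting cells and is carried at high levels by Tregs, which restrain other T cells. Activated CD8+ T cells release IFN-γ (Ifng), which signals through JAK1 and JAK2 and induces antigen presentation genes, GTPases of the Gbp and Irg families, the chemokines Cxcl9 and Cxcl10, and the feedback inhibitor Socs1. Macrophages take up debris, present antigen and, in tumors, can carry wound-repair and lipid-handling programs.

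The groups rest on 4 antibody-borne oligos, which are printed since every comparison depends on telling them apart. Capitals mark bases that differ at the same position from the hashtag of the other treatment in the same reaction, and 14 of 15 did so in each reaction.
TSCam310, Isotype in reaction 1: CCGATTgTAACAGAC
TSCam302, CPI in reaction 1: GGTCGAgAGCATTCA
TSCam301, Isotype in reaction 2: ACCCACCAGTAAgAC
TSCam306, CPI in reaction 2: TATGCTGCCACGgTA

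No gene in the RNA can check the hashtag key, and the hashtags were unequal in how cleanly they marked cells. Over all barcodes the Isotype hashtag had a median of 144 UMIs in reaction 1 and 75 in reaction 2, against 21 and 12 for the CPI hashtag. The median over called barcodes was 566 and 290 for Isotype and 174 and 108 for CPI. The Isotype hashtag was thus abundant in most barcodes, and a barcode had to exceed a high median to be called for it. A second call was therefore used beside the rule throughout: a mixture of 2 normal curves was fitted to the log counts of each hashtag, and a barcode was called when a single hashtag was in its upper curve. It called 10237 and 8380 Isotype barcodes and 1978 and 1513 CPI barcodes, and 7528 and 6565 of these Isotype barcodes had no call under the rule, against 67 and 60 for CPI. Hashtags outside the key had a median of 0 UMIs.

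Among barcodes called CPI by the rule, 53.9% in reaction 1 and 61.6% in reaction 2 had a single hashtag present by the 2-component fit, and this share depended on the cell class. It was 79.0% and 85.3% in T-like barcodes but 41.6% and 43.2% in macrophage-like barcodes and 15.0% and 15.8% in CD45-low, keratin-negative barcodes. The same share in Isotype was 89.3% and 90.2% of macrophage-like barcodes and 82.0% and 93.2% of CD45-low, keratin-negative barcodes. Most macrophage-like barcodes called CPI therefore had no single hashtag by the fit, and where 2 log2 fold changes follow a gene of the macrophage-like or keratin-negative cells, the second is that of the 2-component call.

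**Figure D1:**
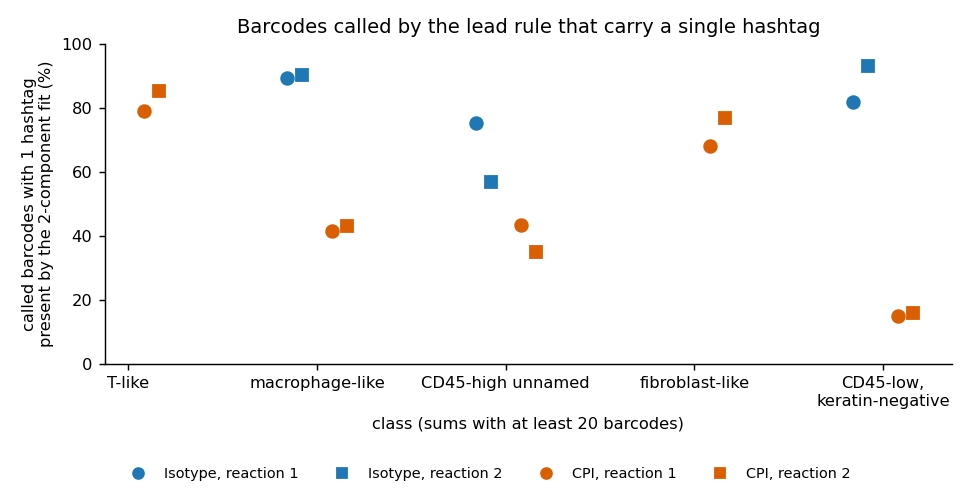
Share of barcodes called by the rule that had a single hashtag present by the 2-component fit (vertical axis, percent), for 5 classes, by treatment and reaction, leaving out sums under 20 barcodes. CPI barcodes of these classes range from 15.0% in CD45-low, keratin-negative cells to 85.3% in T-like cells, whereas Isotype macrophage-like barcodes sit at 89.3% and 90.2%.

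The depth also differed between the groups. CPI barcodes had medians of 3037 and 3638 UMIs and Isotype barcodes 6297 and 13642, with 1444 and 1604 against 2222 and 3611 genes. The reactions held 435031691 and 377184807 gene UMIs in 37774 and 27582 barcodes, and 1416 barcode sequences occurred in both. Classes were rebuilt here from marker genes, so their names end in "-like". The keratin and epithelial genes listed for MC38 cells (Krt7, Krt8, Krt18, Krt19, Krt20, Epcam, Cldn4, Cldn7) marked no cluster. The 4 large Ptprc-low clusters that met no marker list are called CD45-low, keratin-negative cells, with no cell type name. They did not lack fibroblast genes: in the cluster led by H19 and Cilp, 5 of 8 fibroblast markers were raised, with a mean log2 ratio of 0.66, below the limit of 1, and Col3a1 was at 3457 CPM, against 23500.0 in the fibroblast-like cluster. Their MC38 marker sum was 0.353 and 0.388 CPM (CPM, UMIs scaled to 1000000 UMIs of the class) in Isotype and 0.892 and 1.05 CPM in CPI, with Cldn4 and Cldn7 at 0 in all 4 sums. Other unnamed clusters, of intermediate Ptprc or fewer than 50 barcodes, were in neither the CD45-high nor the CD45-low total. They held 12.5% and 9.07% of called barcodes with CPI and 14.6% and 13.3% with Isotype. The large ones, among them a cluster led by Alox5ap, Cd68 and C1qc, had Ptprc at 25.9 to 43.9 CPM. Fibroblast-like and endothelial-like clusters, at 41.9 and 66.3 CPM, were counted as CD45-low.

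The first question was how the cell mix of the tumors differed with CPI. T-like barcodes made up 45.6% (95% Clopper-Pearson interval 43.0–48.3) and 42.4% (39.3–45.6) of CD45-high barcodes in the CPI sums of reactions 1 and 2. In Isotype they were 0.108% (0.0130–0.388) and 0.115% (0.00291–0.639), that is 2 of 1859 and 1 of 870 barcodes. Under the 2-component call the shares were 60.5% and 60.2% in CPI and 0.666% and 0.378% in Isotype, with 31 and 16 Isotype barcodes. Both calls put the T-like share of CPI above that of Isotype in each reaction. All such intervals cover counting error only.

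The hashtag levels of these few Isotype T-like barcodes are given beside the shares. The 3 called by the rule carried medians of 16895 and 2829 Isotype-hashtag UMIs, and none had a single hashtag by the fit. Those of the 2-component call carried medians of 142 and 86.5, against 144 and 75 over all barcodes of any class. Across all hashtags, 16.4% of T-like barcodes had no call under the rule, against 58.3% of macrophage-like and 68.9% of dendritic-cell-like barcodes. The part of the unequal calling in the shares was not tested.

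Macrophage-like barcodes went the other way. They were 24.6% (22.3–26.9) and 40.8% (37.7–44.0) of CD45-high barcodes with CPI and 78.5% (76.6–80.4) and 86.4% (84.0–88.6) with Isotype, or 341 and 405 against 1460 and 752 barcodes. The 2-component call gave 16.9% and 27.6% against 70.1% and 85.2%. Dendritic-cell-like barcodes were rare, at 1.95% and 3.02% with CPI and 0.753% and 0.115% with Isotype. They did not stand apart under the 2-component call, at 2.00% and 3.45% against 2.06% and 2.08%. A CD45-high cluster led by Lrmda, Slc8a1, Dock2 and Cd86 was left unnamed. It had 8 of 8 macrophage markers above the remaining barcodes (mean log2 ratio 2.45), but its median UMI count was 0.181 of its reactions' median and none of those markers was among its 10 leading genes. Its shares overlapped, at 27.3% and 12.4% with CPI and 20.5% and 13.3% with Isotype (exact permutation test, two-sided p = 1). NK-like and B-like barcodes numbered at most 8 per sum.

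Among CD45-low barcodes, fibroblast-like cells, which build the collagen matrix, took most of CPI and few of Isotype. They were 77.0% (74.9–79.0) and 79.6% (77.2–81.9) with CPI and 1.42% (0.778–2.37) and 0.419% (0.114–1.07) with Isotype, from 1321 and 918 against 14 and 4 barcodes. All 14 and all 4 had markers of another lineage, and 3 and 2 had a single hashtag by the fit. They carried medians of 6241 and 544 Isotype-hashtag UMIs, against 144 and 75 over all barcodes. The CPI fibroblast-like barcodes carried medians of 136 and 85 CPI-hashtag UMIs. The part of the unequal calling in these shares was not tested. Endothelial-like barcodes were 4.31% and 4.51% against 0.203% and 0%, the last being 0 of 955 barcodes. CD45-low, keratin-negative cells were 18.7% (16.9–20.6) and 15.9% (13.8–18.1) with CPI and 98.4% and 99.6% with Isotype. Among barcodes with fewer than 2500 genes they were 1.65% and 0.623% against 88.2% and 97.1%. Fibroblast-like cells were then 93.5% and 94.1% against 10.5% and 2.86%, the latter from 8 of 76 and 1 of 35 barcodes. Under the 2-component call the fibroblast-like shares were 90.9% and 91.7% against 1.36% and 0.611%, and those of the keratin-negative cells 5.10% and 3.78% against 98.4% and 99.2%.

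For T-like, macrophage-like, fibroblast-like and keratin-negative barcodes the groups did not overlap, and the differences of the mean shares (CPI minus Isotype) were 43.9, −49.8, 77.4 and −81.7 percentage points. Each had an exact permutation p of 0.333, two-sided, which is the smallest that 2 sums against 2 allow. With classes from the starting markers the difference was 27.2 points for T-like and −29.3 for macrophage-like barcodes, which were then 73.8% and 67.0% with CPI. The total was then of barcodes with starting markers of T, NK, B, macrophage, monocyte or dendritic cells. It was 1115 and 899 barcodes with CPI, against 1387 and 992 above, so these shares have an unlike base. Shares of a fixed total are not independent of each other.

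**Figure D2:**
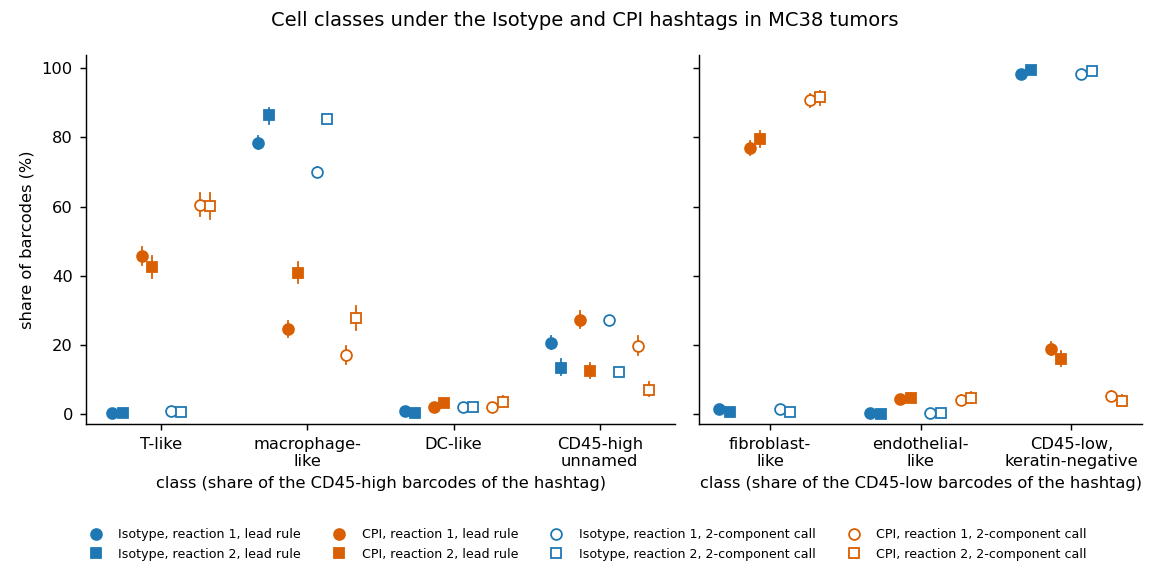
Share of each class among CD45-high or CD45-low barcodes (vertical axis, percent) for CPI and Isotype in reactions 1 and 2, with filled symbols for the rule and open symbols for the 2-component call. T-like and fibroblast-like shares are high with CPI and near 0 with Isotype under both calls, and macrophage-like and CD45-low, keratin-negative shares are the reverse.

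The macrophage-like barcodes fell into 2 clusters. The cluster led by Ccl12, Aif1 and C1qa, genes of mature tissue macrophages and their complement, held 27.9% and 31.4% of them with CPI and 55.2% and 48.3% with Isotype. The other cluster was led by Cxcl2, Arg1, Cd14 and Il1b, genes of inflammatory and wound-type myeloid cells. The 2-component call gave 8.33% and 4.55% against 64.0% and 58.9% for the Ccl12 cluster, so the makeup of the class differed in the same direction under both calls.

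Most T-like barcodes of CPI fell in a CD8-like cluster. It held 615 of 633 and 406 of 421 of them, that is 97.2% and 96.4%, a Treg-like cluster held 11 and 6, and a CD4-like cluster 7 and 9. The CD8-like cluster scored nearly as high on the general T cell list (mean log2 ratio 5.93) as on the CD8 list (6.00). Cd4 was seen in 34 and 41 T-like CPI barcodes, more than the Treg-like and CD4-like clusters held together, so the CD8-like cluster also held barcodes with a Cd4 UMI. A UMI of a Cd3 gene, part of the T cell receptor complex, was seen in 73.9% and 86.7% of T-like CPI barcodes, against 2.20% and 2.29% of fibroblast-like CPI barcodes, which should lack it. Cd8a or Cd8b1, the chains of the CD8 co-receptor, was seen in 39.8% and 45.8% against 1.14% and 1.63%. The median depth was 1113 and 1014 UMIs in T-like and 3748 and 4677 in fibroblast-like barcodes, and the T-like shares lay above these although the T-like barcodes were shallower. The Cd3, Cd8 and Cd4 genes were markers that started and named the T-like clusters, so their higher shares there follow from the classing. Pdcd1, which codes for PD-1, was seen in 14.7% and 19.5% (background 0.530% and 0.436%), and Ifng in 19.6% and 22.6% (0.227% and 0.327%). Cd4 was seen in 5.37% and 9.74% (0.0757% and 0.218%). Macrophage-like CPI barcodes, with medians of 2851 and 2987 UMIs, had higher shares than fibroblast-like ones, with a Cd3 gene in 12.9% and 16.8%, Cd8a or Cd8b1 in 6.74% and 9.88%, Pdcd1 in 2.35% and 3.95%, Ifng in 3.23% and 4.94% and Cd4 in 2.64% and 3.46%. The T-like shares lay above these as well, of which only those of Pdcd1 and Ifng are not of class markers. The clusters were fitted to all genes but mitochondrial and ribosomal ones, so Pdcd1 and Ifng UMIs entered the classing too.

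Gene levels of T-like cells could be set side by side with Isotype only under the 2-component call, and with 31 and 16 Isotype barcodes holding 37831 and 20512 UMIs in all, no test was run. Markers of another lineage were in 58.1% and 18.8% of these Isotype barcodes and in 52.6% and 21.4% of those of CPI. Levels are in CPM for reactions 1 and 2 with exact 95% Poisson intervals. In sums of this kind, fewer cells of a type and less RNA per cell cannot be told apart. The Treg-like cluster held 6 of 31 and 3 of 16 Isotype T-like barcodes (19.4% and 18.8%) and 1.94% and 1.56% of those of CPI.

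Treg genes are given as values only. Foxp3, the defining Treg transcription factor, was at 34.1 (21.1–52.1) and 31.2 (17.1–52.4) CPM with CPI and at 159 (58.2–345) and 390.0 (168–768) with Isotype, from 6 and 8 Isotype UMIs. Ikzf2, which encodes Helios and is carried by many Tregs, was at 216 (181–256) and 212 (171–259) against 1084 (778–1470) and 634 (337–1084), so both CPI sums lay below both Isotype sums. Ctla4 was at 164 and 194 CPM with CPI and at 344 and 195 with Isotype, and its intervals overlapped.

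CD8 and effector genes did not all go the same way. Cd8a was at 237 (200–279) and 361 (308–421) CPM with CPI and 52.9 and 293 (107–637) with Isotype, the former from 2 UMIs. Pdcd1 was at 136 (109–169) and 238 (195–288) with CPI against 52.9 (6.4–191) and 48.8 (1.23–272) with Isotype, from 2 and 1 UMIs, and the groups did not overlap although their intervals did. Gzmb, a cytotoxic granule protease, was at 92.6 (70.1–120) and 129 (98.2–167) with CPI and at 317 (164–554) and 585 (302–1022) with Isotype, from 12 UMIs in each Isotype sum. The Gzmb level of CPI lay below that of Isotype in both reactions.

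Ifng itself did not separate the groups. It was at 304 (262–351) and 361 (308–421) CPM with CPI and at 159 (58.2–345) and 780.0 (446–1267) with Isotype, so the 2 Isotype sums lay on either side of CPI. Ccl5 and Nkg7, both genes of cytotoxic cells, overlapped too, at 1692 and 2180 against 1930 and 1511 CPM and at 937 and 1380 against 925 and 1804 CPM. Tcf7, a factor of naive and memory T cells, was at 43.9 and 91.4 CPM with CPI and had no UMI in Isotype, where 3 counts would be 79.3 and 146 CPM, so a difference was not detectable at this depth. Jak1 was at 250.1 and 363 CPM with CPI and at 185 and 244 with Isotype, and Jak2 at 109 and 105 against 79.3 and 48.8.

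**Figure D3:**
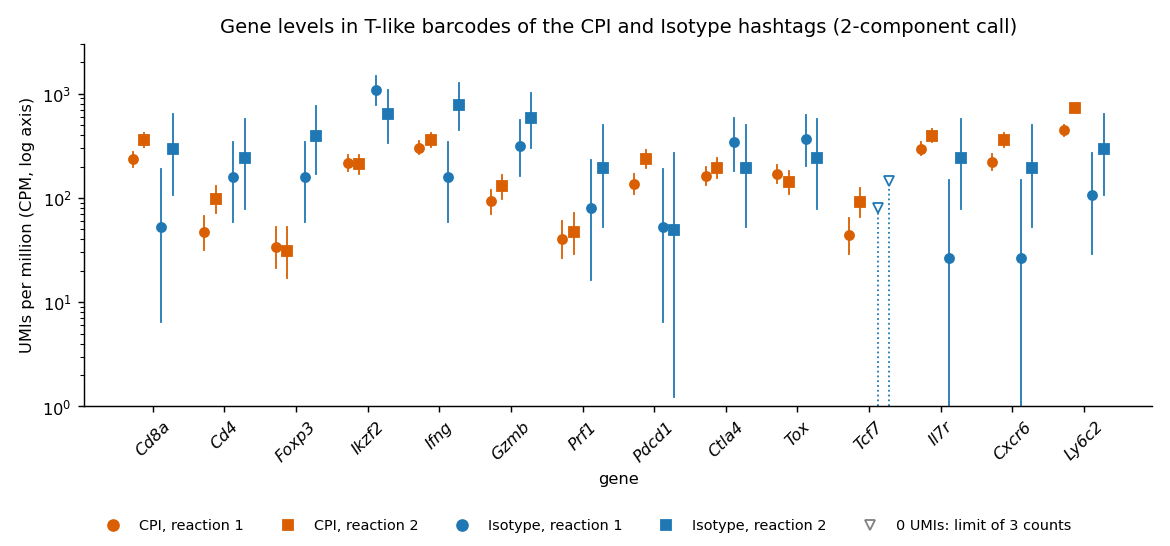
Levels of selected genes in T-like barcodes of CPI and Isotype in reactions 1 and 2 under the 2-component call (vertical axis, CPM on a log scale), with exact 95% Poisson intervals and open triangles at 3 counts where no UMI was seen. Ikzf2 and Gzmb lie lower with CPI in both reactions, while Ifng of CPI lies between the 2 Isotype sums.

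The next question was which genes differed with CPI within macrophage-like cells. Of 10017 genes tested, 1072 (10.7%) were higher and 840 (8.39%) were lower with CPI at an adjusted p under 0.05 (edgeR's quasi-likelihood test with the reaction as a block and Benjamini-Hochberg adjustment), 19.1% in all. Under the 2-component call 1177 (14.6%) of 8062 were higher and 1016 (12.6%) lower. The calls shared 1341 genes, which are 70.1% of those of the rule and 61.1% of those of the 2-component call, and 1334 of them had the same sign. The lists below are described by counts and medians, beside a median of 0.00 over all genes tested under the rule and −0.03 under the 2-component call.

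Material of other cells differed between the same sums. The summed level of 8 T cell markers, all detected in each sum, was 11.9 and 9.10 CPM in Isotype and 224 and 374 in CPI macrophage-like barcodes. It was 7.40 and 5.90 against 61.5 and 77.1 under the 2-component call, and 2.81 and 1.63 against 4.56 and 14.9 when barcodes with at least 2 markers of another lineage were left out. Those markers included the same 8 T cell genes, so a fall of their sum follows from that step. Neutrophil markers summed to 117 and 99.4 against 1046 and 206, with 7 or 8 of 8 detected, and erythroid markers to 1.68 and 0.682 against 207 and 21.3, with 3 or 4 of 5 detected in Isotype, where Alas2 was at 0, and 5 of 5 in CPI. Fibroblast markers summed to 268 and 173 against 384 and 295, with 8 of 8 detected. Calls of Ifng (log2 fold change 4.43), Pdcd1 (4.43), Ctsw (6.11), Camk4 (5.80), Themis (5.50) and Gzmb (5.13), all T cell genes, stand beside these values, and none passed the low-count filter in the 2-component call. Hbb-bs, a hemoglobin gene, was at 102 and 12.0 CPM with CPI and under 1 CPM with Isotype. Lcn2, which neutrophils carry, was at 44.5 CPM in reaction 1 of CPI but 0.665 in reaction 2. The part of such material in these calls was not tested.

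Of the genes named for the size of their rise, Retnla, Lyz1, Saa3, F7 and Hp are not T cell, erythroid or neutrophil markers of the lists used. Retnla, a marker of alternative activation, had 1 and 1 UMIs in Isotype and 46 and 106 in CPI, that is 0.153 and 0.227 against 40.1 and 70.5 CPM, and 135 and 272 CPM with CPI under the 2-component call. Lyz1, a lysozyme gene, was at 1.68 and 3.41 CPM with Isotype and 289 and 199 with CPI (log2 fold change 6.64, SE 0.19, edgeR adjusted p = 3.03e-26, and 7.80 under the 2-component call). Saa3, an acute phase protein, was at 2.30 and 1.36 against 123 and 163 (6.13, SE 0.22, edgeR adjusted p = 2.43e-23, and 6.92). Both CPI sums stood far above both Isotype sums for these genes. Coagulation factor gene F7 had 2 and 3 UMIs in Isotype and 52 and 54 in CPI, and haptoglobin, Hp, 3 and 0 against 31 and 40. Ly6c2, which recruited monocytes and CD8+ T cells both carry, was at 4.13 and 6.14 against 54.0 and 92.4 CPM (3.82, SE 0.23, edgeR adjusted p = 2.89e-16, and 4.07). It was among the leading genes of the CD8-like cluster, and the T cell marker sums above moved with it. It gave 3.54 when barcodes with markers of another lineage were left out. The T cell marker sums were still higher with CPI after that step.

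Lipid handling genes split by member. Of 14 genes listed for lipid-associated macrophages, 8 were higher and 3 lower, with a median log2 fold change of 0.24 (11 and 1, median 1.04, under the 2-component call). Gpnmb, a lysosomal glycoprotein, was at 15.9 and 14.1 CPM with Isotype and 128 and 121 with CPI (3.00, SE 0.16, edgeR adjusted p = 4.99e-18). Fabp5, a fatty acid carrier, was at 220 and 185 against 986 and 859 (2.14, SE 0.07), Fabp4 at 10.9 and 11.6 against 81.9 and 61.8 (2.62), and the lipase Lpl (2.56) and the scavenger receptor Cd36 (0.95) were higher as well. All rose further under the 2-component call, to 4.11, 3.47, 3.50, 3.61 and 2.07. Trem2 (−0.41), Apoe (−0.31) and Spp1 (−0.29), lipid receptor, lipid carrier and osteopontin, fell under the rule, but only Spp1 kept its call under the 2-component fit (−0.75).

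Complement genes also moved in both directions. C1qa, a subunit of the first component and a macrophage marker, was at 4118 and 5171 CPM with Isotype and 2343 and 3351 with CPI (−0.76, SE 0.05, edgeR adjusted p = 3.9e-14), and C1qb (−0.61) and C1qc (−0.72) fell with it. C3, the central component, rose from 28.0 and 22.5 to 125 and 125 CPM (2.25, SE 0.13, edgeR adjusted p = 3.34e-16). In the list of 12, 4 members were higher and 6 were lower, with a median of −0.21. The directions of C1qa and C3 held under the 2-component call, at −1.33 and 3.22.

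Chemokines of monocytes and neutrophils divided in the same way, with 6 of 16 higher and 7 lower (7 and 7 under the 2-component call). Ccl6 was at 55.9 and 60.0 CPM with Isotype and 644 and 506 with CPI (3.28, SE 0.11, edgeR adjusted p = 2.08e-24, and 4.65), and Ccl8 at 100 and 119 against 465 and 414 (1.96, and 3.44). Ccl12, a ligand of Ccr2, was at 970 and 998 against 424 and 686 (−0.87), and its fall under the 2-component call was larger (−3.58). Ccl12, like C1qa, C1qb and C1qc, is a leading gene of the macrophage-like cluster whose share was smaller with CPI. Within that cluster alone, an alternative added after seeing the data, Ccl12 was lower by 0.38 on the log2 scale (edgeR adjusted p = 0.00439) and within the other cluster alone by 1.30 (6.28e-09). C1qa, C1qb and C1qc were lower by 0.42 to 0.44 in the first and by 0.72 to 1.03 in the other, past the threshold in both. Ccl2, Ccl3, Ccl4 and Cxcl16 were lower by 0.39 to 0.59 on the log2 scale. Mmp19, a matrix protease, rose from 3.67 and 4.78 to 91.5 and 53.2 CPM (4.06, SE 0.24, and 5.56), and 4 of 8 genes for matrix proteases and their inhibitors were higher with none lower.

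Interferon-responsive genes did not all move in the same direction. Of 28 type I interferon-stimulated genes, 13 were lower and only Ifih1 was higher, with a median of −0.43 (14 and 1, median −0.99, under the 2-component call). Rsad2, an antiviral enzyme, was at 266 and 249 CPM with Isotype and 126 and 181 with CPI (−0.78, and −1.02), and Bst2, which tethers virus particles, at 952 and 1050 against 614 and 730 (−0.62, edgeR adjusted p = 7.26e-11, and −1.33). Isg15 was at 717 and 827 against 534 and 704 (−0.37, and −0.44). Ifit3 was at 53.6 and 55.3 against 15.7 and 53.2 (−0.66, and −1.76), so under the rule its fall came mainly from reaction 1.

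Genes tied more closely to IFN-γ moved in both directions. Cxcl10, which recruits T cells through CXCR3, was at 930 and 973 CPM with Isotype and 621 and 678 with CPI (−0.60, SE 0.06, edgeR adjusted p = 1.32e-10), and Cxcl9 at 255 and 229 against 223 and 190 (−0.28, SE 0.08, edgeR adjusted p = 0.00749). Irf1, the transcription factor at the head of the IFN-γ response, went from 104 and 102 up to 190 and 179 (0.78, SE 0.09, edgeR adjusted p = 8.75e-09). Socs1, the inhibitor of JAK signaling, went from 16.1 and 21.1 up to 55.8 and 53.2 (1.50, SE 0.19, edgeR adjusted p = 5.25e-08). Of 15 inducible GTPases, Gbp4 (0.67) and Gbp2 (0.39) were higher and none was lower, with a median of 0.35. The signs of these 6 genes were the same under the 2-component call, at −1.03, −0.45, 1.57, 2.00, 1.38 and 0.85.

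Of 11 JAK and STAT genes, 4 were higher and none lower. Jak1, the target of ABT-317, was at 90.3 and 90.5 CPM with Isotype and 155 and 141 with CPI (0.66, SE 0.10, edgeR adjusted p = 2.99e-06, and 1.17 under the 2-component call). Jak2 (0.17, edgeR adjusted p = 0.383) did not pass. Stat3 (0.44), Stat5a (1.01) and Stat5b (0.65) were called, of which Stat3 (edgeR adjusted p = 0.207) and Stat5b (0.95) did not pass under the 2-component call. Among the feedback genes, Socs3 went against Socs1, from 364 and 407 to 248 and 283 CPM (−0.59, and −0.69).

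The antigen presentation lists are given side by side, with no test of a difference between them. H2-Ab1, an MHC class II chain, was at 2106 and 2506 CPM with Isotype and 3384 and 3125 with CPI (0.45, SE 0.06, edgeR adjusted p = 5.99e-07). H2-Aa (0.44), H2-Eb1 (0.32) and the invariant chain Cd74 (0.24) were called with it, that is 4 of 10 listed genes (7 of 9 under the 2-component call, where H2-Ab1 was 1.09 and Cd74 0.84). Ciita, the class II transactivator, was at 15.5 and 11.6 against 17.4 and 21.9 and did not pass (edgeR adjusted p = 0.202). These 4 calls were lost without the block, at edgeR adjusted p from 0.0537 to 0.478, and none was made within the Ccl12 cluster alone. Of 19 MHC class I genes 2 were higher and 2 lower. H2-K1 was at 1460 and 1534 against 1676 and 1792 (0.16, SE 0.05, edgeR adjusted p = 0.0231, and 0.62), and B2m, its light chain, did not pass (−0.04).

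Among ligands of the targeted receptors, Cd274 was at 249 and 224 CPM with Isotype and 250 and 254 with CPI (0.05, edgeR adjusted p = 0.71), although it was called under the 2-component fit (0.43, edgeR adjusted p = 0.00646). Pdcd1lg2 was at 1.84 and 1.82 against 11.3 and 10.6 (2.51, edgeR adjusted p = 4.09e-05) and was not tested under the 2-component call. Cd86 was at 434 and 422 against 357 and 332 (−0.36, and −0.74), lower in both reactions. Of 6 genes for Fcγ receptors and their signaling chain, which bind the constant part of antibodies, 4 were lower and none higher. The high-affinity receptor Fcgr1 was at 204 and 214 against 121 and 154 (−0.65, SE 0.09, edgeR adjusted p = 7.28e-07, and −1.51), Fcer1g fell by 0.57 and Fcgr4 by 0.50 on the log2 scale. Fcer1g is a leading gene of the Ccl12 cluster, whose share of the class was smaller with CPI. Levels of these receptor genes within each cluster are not given.

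Genes of the wound-type and inflammatory programs were less clear. Arg1 was at 320 and 324 CPM with Isotype and 326 and 332 with CPI (−0.02, edgeR adjusted p = 0.933), but was higher under the 2-component call (1.13). Nos2, the nitric oxide synthase of activated macrophages, likewise passed only there (0.45, edgeR adjusted p = 0.121 under the rule, and 1.63). Il1b turned, being lower under the rule (−0.33) and higher under the 2-component call (0.31), both past the threshold. Arg1 and Il1b are leading genes of the Cxcl2 cluster. That cluster held 72.1% and 68.6% of the class with CPI and 44.8% and 51.7% with Isotype under the rule. Under the 2-component call it held 91.7% and 95.5% against 36.0% and 41.1%. The part of this makeup in the Arg1 and Il1b values was not tested. Mrc1, the mannose receptor, was higher under both (0.81 and 1.35), from 86.5 and 82.6 up to 178 and 132 CPM.

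More cell cycle and glycolysis genes were called lower than higher. Of 24 cell cycle genes 13 were lower and none higher (median −0.54, and 19 lower, median −1.45, under the 2-component call). Top2a fell by 0.56 on the log2 scale, whereas Mki67 was at 127 and 107 against 102 and 103 CPM and did not pass (edgeR adjusted p = 0.112). Of 25 glycolysis and hypoxia genes 14 were lower and 2 higher (median −0.44), among them Ldha, at 1038 and 1299 against 678 and 878 CPM (−0.63, edgeR adjusted p = 5.9e-11, and −1.12). Glycolysis genes were 13 lower and 4 higher under the 2-component call. Among the 10 genes named for the size of their fall were Cox4i2, an isoform of a respiratory chain subunit induced by low oxygen, at 26.2 and 36.2 against 6.10 and 15.3 CPM (−1.54, and −4.08), and the chemokine Cxcl14, at 202 and 250 against 70.6 and 126 (−1.23, SE 0.10, edgeR adjusted p = 1.31e-12, and −3.09). Cenpm, also among these 10, is a leading gene of a CD45-low, keratin-negative cluster. Those cells met no marker list, so their material in the macrophage-like sums was not measured.

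**Figure D4:**
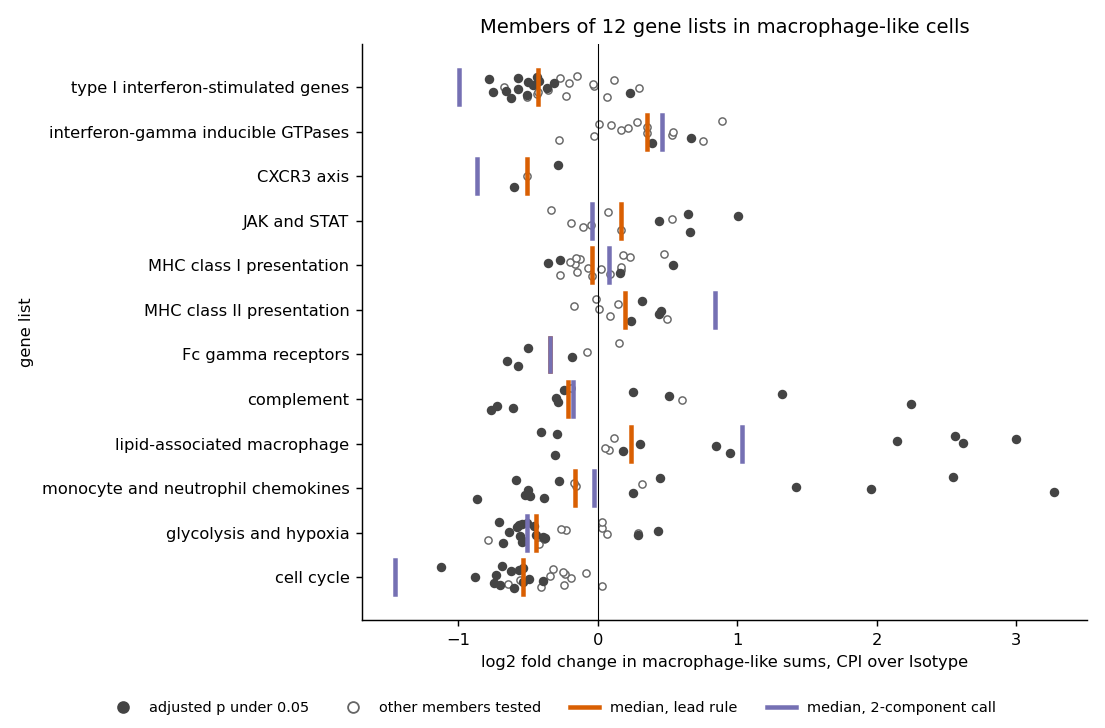
Log2 fold change of CPI over Isotype in macrophage-like cells (horizontal axis) for the genes of each list, with lines at the list median under the rule and under the 2-component call. Type I interferon-stimulated, cell cycle and glycolysis genes have medians of −0.43, −0.54 and −0.44 under the rule, and the lipid-associated list spreads to both sides.

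The number of macrophage-like calls depended on the fit. The 1912 calls were 709 with DESeq2, 820 without the reaction as a block, 1151 without the CPI sum of reaction 1 and 1226 without the Isotype sum of reaction 1. With the Ccl12 cluster alone, 404 genes were called, and with the Cxcl2 cluster alone 1449, of which 779 were higher and 670 lower with CPI.

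Antibodies against surface proteins, counted in the same droplets, gave a second readout, in counts scaled to 1000000 antibody counts (CPM). In macrophage-like cells 28 of 122 antibodies (23%) were called, 14 higher and 14 lower. I-A/I-E, the MHC class II protein, was at 11227 and 12916 with Isotype and 19274 and 19302 with CPI (log2 fold change 0.69, SE 0.06, edgeR adjusted p = 0.00391, and 1.37 under the 2-component call), the direction of its RNA. CD38, an ectoenzyme of activated myeloid cells, was at 1621 and 1621 against 4144 and 3139 (1.18, SE 0.15, edgeR adjusted p = 0.00773, and 2.10). CD274 protein was at 2491 and 2526 against 3032 and 3029 (0.28, SE 0.03, edgeR adjusted p = 0.00399), higher in both reactions although its RNA did not pass. The integrin chains CD29, at 7734 and 9287 against 5678 and 6466 (−0.47), and CD49f, at 26136 and 27297 against 19146 and 19864 (−0.44), were lower. CD90.2, a T cell and stromal protein, was higher by 1.19 under the rule and by 0.39 under the 2-component call, beside the T cell marker sums given above. CD86 (0.02) and CD279, which is PD-1 (−0.04), did not pass.

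**Figure D5:**
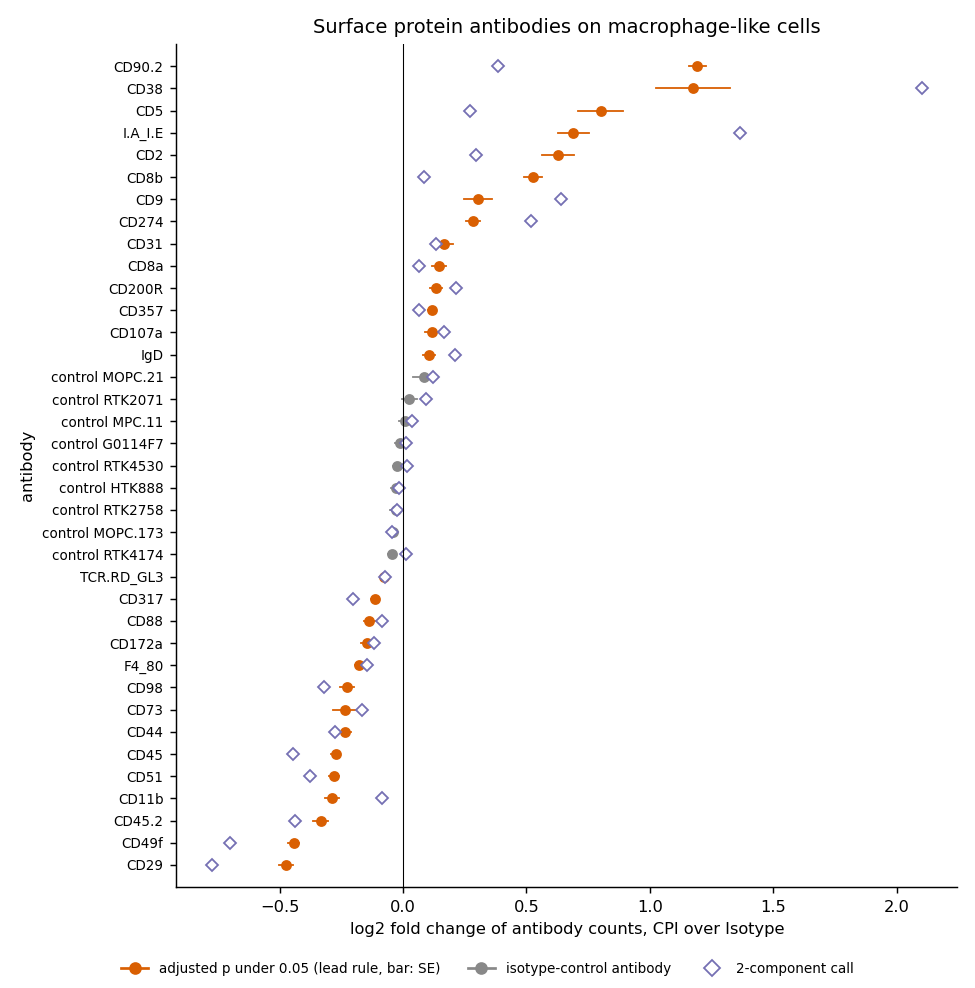
Log2 fold change of CPI over Isotype (horizontal axis) for surface protein antibodies in macrophage-like cells under the rule, with diamonds for the 2-component call. I-A/I-E, CD38 and CD274 lie to the right and CD29 and CD49f to the left under both calls, while CD90.2 moves from 1.19 to 0.39.

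In CD45-low, keratin-negative cells the rule and the 2-component call gave different accounts. Under the rule, 1877 (12.1%) of 15483 genes were higher and 1390 (8.98%) lower with CPI, 21.1% in all. Under the 2-component call, with 52 and 30 CPI barcodes against 3324 and 3410 of Isotype, 1039 (6.95%) of 14948 were higher and 1236 (8.27%) lower. The calls shared 1374 genes, which are 42.1% of those of the rule and 60.4% of those of the 2-component call, and 1335 had the same sign. The median over all genes was 0.01 under the rule and −0.07 under the 2-component call. Fibroblast markers summed to 2644 and 3082 CPM in Isotype and 3817 and 3378 in CPI under the rule, but to 2197 and 2286 against 1291 and 1503 under the 2-component call. T cell markers summed to 1.92 and 0.603 against 34.6 and 22.2 under the rule, with 7 and 6 of 8 detected in Isotype and 8 of 8 in CPI, and all 8 were at 0 in CPI under the 2-component call. Their part in the calls of the rule was not tested.

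The makeup of the class differed between the groups. The cluster led by H19 and Cilp held 28.0% and 26.8% of it with CPI and 39.7% and 47.8% with Isotype (13.5% and 16.7% against 33.3% and 34.5% under the 2-component call). The cluster led by Timm8a1, Psph and Srm held 30.8% and 40.4% against 19.3% and 16.6% (50.0% and 63.3% against 26.9% and 25.4%). The part of this makeup in the gene calls was not tested.

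Several of the genes named for the size of their rise are genes of fibroblasts and their matrix. Igfbp7, a secreted binding protein and a leading gene of the endothelial-like cluster, was at 3.22 and 2.89 CPM with Isotype and 135 and 186 with CPI (log2 fold change 5.74, and 2.56 under the 2-component call). Col1a2, a type I collagen chain, was at 19.1 and 12.5 against 560 and 448 (5.03, SE 0.12, edgeR adjusted p = 5.53e-16, and 3.52). Cthrc1, Gpx3, Mfap2, Cpxm1, Sfrp2, Mmp3, Serping1 and Plac9 rose by 4.90 to 5.72 under the rule, and Mmp3 did not pass under the 2-component call (edgeR adjusted p = 0.0797). Col1a2, Gpx3, Plac9, Serping1, Sfrp2 and Mmp3 were also leading genes of the fibroblast-like cluster. Endothelial markers summed to 10.8 and 11.9 CPM with Isotype and 27.7 and 43.9 with CPI under the rule, and the CD31 antibody, against an endothelial protein, was at 2599 and 2670 against 4738 and 6129 CPM (1.02, SE 0.10, edgeR adjusted p = 0.00347, and 0.06 under the 2-component call). The collagens were mixed, with 6 of 19 higher and 8 lower. Col6a1 was at 482 and 558 against 279 and 256 CPM (−0.92, and −1.49) and Col6a2 gave −0.94 and −1.25, lower under both calls. Col3a1 did not pass under the rule (−0.08) and fell under the 2-component call (−1.46).

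Of the genes named for the size of their fall, Cilp and Enpp2 are leading genes of the cluster led by H19 and Cilp, whose share was smaller with CPI. Cilp, a cartilage matrix protein, was at 77.5 and 96.3 CPM with Isotype and 26.3 and 28.6 with CPI (−1.64, and −2.99 under the 2-component call). Tgfb3, a TGF-β ligand, was at 56.9 and 66.3 against 26.5 and 22.6 (−1.28, and −2.07). The peptidase gene Mme (−1.08, and −3.31) fell with them. Enpp2, which makes lysophosphatidic acid, was at 35.0 and 36.1 against 6.39 and 6.06 under the rule (−2.49, SE 0.17, edgeR adjusted p = 4.22e-09), but did not pass under the 2-component call (−0.33).

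Antigen presentation by MHC class I depended on the call. Under the rule 18 of 19 genes were lower and Nlrc5, their transactivator, was higher, with a median of −0.53, whereas 7 were lower and 3 higher, with a median of −0.12, under the 2-component call. H2-K1 was at 1384 and 1677 CPM with Isotype and 1027 and 1040 with CPI (−0.53, SE 0.05, edgeR adjusted p = 1.31e-07), but at −0.04 (edgeR adjusted p = 0.607) under the 2-component call. B2m was at 2813 and 3091 against 2299 and 2283 (−0.33), but did not pass under the 2-component call either (0.02). Nlrc5 rose under both (0.63 and 2.09).

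IFN-γ-responsive genes were mostly higher under the 2-component call and mixed under the rule. Of 17 inducible GTPases 1 was higher and 3 lower under the rule (median 0.02), and 12 were higher with none lower under the 2-component call (median 1.14). Cd274 was at 12.7 and 10.3 CPM with Isotype and 23.3 and 19.2 with CPI (0.93, SE 0.11, edgeR adjusted p = 7.69e-06, and 2.32). Cxcl10 was at 174 and 195 against 213 and 234 (0.31, SE 0.04, edgeR adjusted p = 5.54e-05, and 1.46), and Iigp1, a GTPase of the Irg family, at 36.2 and 47.3 against 50.4 and 54.1 (0.35, edgeR adjusted p = 0.0483, and 2.30). These 3 genes rose under both calls. Gbp2 turned from −0.31 to 0.91, past the threshold under each call. Cxcl9, Irf1 and Socs1 did not pass under the rule and were at 2.01, 1.29 and 1.01 under the 2-component call. Type I interferon-stimulated genes were lower in 12 of 28 and higher in 2 under the rule, and lower in 1 and higher in 3 under the 2-component call.

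Heat shock genes were called higher under both calls. Of 11 heat shock genes 7 were higher and none lower under the rule (median 0.35), and 8 were higher under the 2-component call (median 0.47), with none lower. The mitochondrial chaperone Hspd1 was at 458 and 458 CPM with Isotype and 559 and 673 with CPI (0.45, and 0.64). Cxcl1, a neutrophil chemokine, was at 132 and 155 against 252 and 354 (1.10, SE 0.07, edgeR adjusted p = 8.25e-10, and 2.45). Odc1, the first enzyme of polyamine synthesis, was at 113 and 116 against 215 and 246 (1.04, and 1.76), Hmox1, which breaks down heme, rose by 0.82 (2.02 under the 2-component call) and Ptgs2, the inducible prostaglandin synthase, by 0.77 (1.68). Of 26 gene rows for glycolysis and hypoxia 10 were lower and none higher (15 lower and 1 higher under the 2-component call). Mki67 (−0.04) and Jak1 (0.01) did not pass.

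The 3267 calls of the rule were 1201 without the block, 2165 without the CPI sum of reaction 1 and 1847 without that of reaction 2. Of 122 antibodies, 34 (27.9%) were called in these cells, 18 higher and 16 lower, and 16 were called under the 2-component call. CD63, a tetraspanin of endosomes, was at 43379 and 47501 CPM with Isotype and 33697 and 36727 with CPI (log2 fold change −0.39, SE 0.01, edgeR adjusted p = 0.000168, and −0.26). CD55, which restrains complement, rose by 0.57 (0.27 under the 2-component call). CD90.2 was at 1040 and 873 against 4345 and 4227 (2.15), but did not pass under the 2-component call (1.20). CD317, the protein of Bst2, was lower under the rule (−0.25) and higher under the 2-component call (0.89, edgeR adjusted p = 0.00314), and CD274 passed only under the latter (0.26, edgeR adjusted p = 0.00417).

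In fibroblast-like cells the rule left 14 and 4 Isotype barcodes. A fit under the rule of barcodes chosen by starting fibroblast or pericyte markers held 8 sums. It called 4334 of 14599 genes higher with CPI and 3866 lower, and its genes are not given. Levels below are of the fibroblast-like cluster under the 2-component call, a choice made after seeing the data. They come from 46 and 21 Isotype barcodes against 926 and 727 of CPI. These Isotype barcodes carried medians of 116.5 and 81 UMIs of their hashtag, against 144 and 75 over all barcodes of any class, and 58.7% and 47.6% of them had markers of another lineage. The CPI barcodes carried medians of 114 and 76 UMIs of their hashtag, against 21 and 12 over all barcodes, and 47.6% and 30.4% of them had such markers. Of 4279 genes tested 174 (4.07%) were higher and 168 (3.93%) lower, 7.99% in all. The fit under the 2-component call held 5 sums, those of Isotype and CPI in both reactions and that of CPI with ABT-317 in 1 reaction. This left 1 residual degree of freedom among the sums. The fibroblast marker sum was 46626 and 26966 CPM in Isotype and 78197 and 85996 in CPI, and the macrophage marker sum was 2029 and 4305 against 840.0 and 728. Fibroblast genes were thus higher and macrophage genes lower in the CPI sums, and the part of such material in the calls was not tested.

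Of 17 collagen genes 7 were higher and 5 lower. Col1a1, a chain of fibrillar collagen, was at 16203 and 8698 CPM with Isotype and 23644 and 26046 with CPI (log2 fold change 1.22, SE 0.21, edgeR adjusted p = 0.00472), and Col1a2 (1.45) and Col3a1 (1.45) rose with it. Col6a5, a chain of type VI collagen, was at 15.6 and 8.80 against 175 and 175 (3.89, SE 0.45, edgeR adjusted p = 0.000553). Col4a1, a basement membrane chain, was at 1020 and 977 against 292 and 332 (−1.53, SE 0.20, edgeR adjusted p = 0.000778). Pi15 and Cxcl13, a B cell chemokine, had no UMI in Isotype and were at 46.6 and 52.1 and at 45.4 and 52.1 CPM with CPI.

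Among the genes that fell, Higd1b, a gene of pericytes, was at 500.3 and 326 CPM with Isotype and 25.8 and 39.1 with CPI (−3.55). Ccl4 was at 1722 and 2553 against 110 and 58.9 (−4.53, SE 0.30, edgeR adjusted p = 2.5e-05), and Arg1, Ccl3 and Tnf, which macrophages carry, fell with it. C1qa, a defining macrophage gene, fell as well, from 286 and 748 to 75.9 and 42.6 CPM (−2.88). Cxcl9 fell by 2.38 and Isg15 by 2.03 on the log2 scale, while Cxcl10 (−0.08) and H2-K1 (0.43) did not pass. None of 16 MHC class I genes was called. The 342 calls were 123 with DESeq2, which did not call Pi15, Cxcl13 or Twist2. Of 122 antibodies, 2 (1.64%) were called, both integrin chains that bind collagen and laminin. CD29 was at 18442 and 19460 CPM with Isotype and 7700 and 8324 with CPI (−1.26), and CD49a at 19641 and 19453 against 8929 and 9284 (−1.12).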

How the data were processed

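Single-cell 5′ RNA, surface antibody and hashtag libraries of 2 MC38 tumor reactions were used. The authors deposited UMI counts per gene or antibody and barcode, unnormalized, for 33696 genes, 122 antibodies and 10 hashtags. The submitters' processing notes name Cell Ranger 3.1.0 and the file header 8.0.1. The genome build behind these gene identifiers could not be settled, so no coordinates are given. Treatments came from the deposited hashtag key, and 0 columns of per-sample values were left unmapped. The members and gene lists were chosen with earlier results of these data known.

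Barcodes were filtered and called as the report states, with no upper limit on genes, and no doublet caller was run. A multinomial mixture was started from 22 marker lists plus 1 component for the remainder and run for 80 iterations, after which 26 barcodes changed cluster in the last. Its 23 clusters were named after the fit by their markers: at least 3 markers at 1.5 times the level of the remaining barcodes and in at least 1% of barcodes, with a mean log2 ratio of at least 1. A cluster of fewer than 10 barcodes stayed unnamed, as did one with a median UMI count under 1/3 of that of its reactions and no marker of its name among its 10 leading genes (1 cluster, at a ratio of 0.181). Unnamed clusters of at least 50 barcodes were CD45-low under 10 CPM of Ptprc and CD45-high from 100 CPM. The remaining unnamed clusters entered neither total. No neutrophil cluster and no cluster with the MC38 list was found.

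UMIs were summed per class, treatment and reaction, and a sum entered a fit with at least 20 barcodes, while levels given without a test also come from smaller sums. The main fit was edgeR 4.0.16 (quasi-likelihood, TMM, filterByExpr, all 4 treatments, reaction as a block, with only 5 sums for the fibroblast-like cells) with Benjamini-Hochberg adjustment at 0.05, in R 4.3.3. DESeq2 1.42.0, RLE size factors, no filter, no block, the 2 groups alone, fewer than 2500 genes, the 2-component call, starting markers, removal of second-lineage barcodes and each sum left out were alternatives. Macrophage-like clusters alone and the fibroblast-like tests were added after seeing the data. All 4 hashtags of a reaction shared a droplet run, and differences between reactions correlated between treatments at r of 0.168 to 0.659 across genes. Shares and levels used Python 3.11.15 with scipy 1.17.1, and a count of 0 was limited at 3 counts. Tests were tried on simulated data: in macrophage-like sums edgeR recovered 9.0% of 200 genes changed by 2 times (9882 genes) and 86.5% of those changed by 4 times (9900 genes), at an assumed dispersion of 0.05. That value was not taken from the real sums, so these shares do not give the power of the tests reported here.

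Named genes were up to 10 called genes in each direction with the largest change, at least 20 CPM on average in the higher group and the same direction in both reactions, plus called list members and a fixed set. T, CD8 T, Treg, dendritic and neutrophil classes had too few Isotype barcodes, or no cluster, for a test. Lymph node reactions were not analysed here. Some results are not reported here.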

Additional observations from a re-analysis of the deposited data

Results flagged for a closer look

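Opposite directions in the 2 tested classes under the same contrast drew 3 items, and the difference between the classes was not tested for any of them. Cxcl10 RNA was lower with CPI in macrophage-like cells (log2 fold change −0.60) and higher in CD45-low, keratin-negative cells (0.31), in both reactions of each. The signs were the same under the 2-component call. H2-K1 RNA was higher with CPI in macrophage-like cells (0.16) and lower in CD45-low, keratin-negative cells (−0.53), but the latter was −0.04 under the 2-component call. The CD73 antibody, against an ectoenzyme that makes adenosine, was lower in macrophage-like cells (−0.23) and higher in CD45-low, keratin-negative cells (0.31), and neither passed under the 2-component call.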

How the results depend on the processing

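The differences in the T-like, macrophage-like, fibroblast-like and CD45-low, keratin-negative shares kept their direction under each alternative run. Classes from the starting markers took the T-like difference from 43.9 to 27.2 points and the macrophage-like from −49.8 to −29.3. Their total was of barcodes with starting markers of an immune class and not of the CD45-high clusters. Shares from the starting markers were not computed for the last 2 classes. The fibroblast-like share was therefore not checked this way, although that class then held at least 20 barcodes in each Isotype sum. The share of the unnamed CD45-high cluster, 2.91 percentage points higher with CPI, was −6.25 under the 2-component call and −4.51 to 10.3 with each sum left out, turning without the CPI sum of reaction 1 or the Isotype sum of reaction 2.

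The 1912 macrophage-like genes were 709 with DESeq2, 820 with no replicate block, 3122 from starting markers, 404 in the Ccl12 cluster alone, 1449 in the Cxcl2 cluster alone and 1151 to 1408 with each sum left out. The 3267 genes of CD45-low, keratin-negative cells were 1201 with no replicate block and 1847 to 3466 with each sum left out. The 342 fibroblast-like genes were 123 with DESeq2 and 563 with no filter. From starting markers under the rule, 4334 of 14599 genes of that class were higher and 3866 lower. The 28 macrophage-like antibodies were 15 with no replicate block, 3 with Isotype and CPI alone, 48 from starting markers and 11 to 36 with each sum left out. The 34 antibodies of CD45-low, keratin-negative cells were 18 with no replicate block, 11 with Isotype and CPI alone, 16 under the 2-component call and 20 to 30 with each sum left out. The 2 fibroblast-like antibodies were 6 with no replicate block and 6 with DESeq2. From starting markers under the rule, 19 of 122 antibodies were higher and 13 lower. The cause was not tested for any of these.

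Among genes named for their size, 30 kept their call under the 2-component call, 5 lost it and ENSMUSG00000079190 turned to 0.18 in CD45-low, keratin-negative cells. With DESeq2 48 kept it and 12 lost it, and 60 kept it without the block. The fits of CD45-low, keratin-negative cells under 2500 genes and from starting markers, and the fibroblast-like fits with a sum left out, were not run. Few Isotype T-like and fibroblast-like barcodes limit the depth of those levels.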

Other observations

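Dendritic-cell-like cells were too few for a test, and their levels are given under the 2-component call, with 17 and 22 CPI barcodes and 96 and 88 of Isotype. Ccr7, which guides mature dendritic cells to lymph nodes, was at 1102 and 1285 CPM with CPI and 175 and 88.9 with Isotype. Cd274 was at 441 and 383 against 205 and 201, and the costimulatory gene Cd80 at 189 and 158 against 73.1 and 92.2. These 3 genes of mature dendritic cells were higher in both CPI sums than in both Isotype sums. The cluster led by Ccl22 and Ccr7 held 47.1% and 31.8% of the class with CPI and 10.4% and 9.09% with Isotype, so the makeup of the class differed between the groups. Ciita was at 78.7 and 124 against 199 and 224, both CPI sums below both Isotype sums, while Cxcl9 overlapped, at 63.0 and 451 against 368 and 362. The CPI sums came from few barcodes, and the counting error of these levels is not given.

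Endothelial-like cells numbered 41 and 36 with CPI and 8 and 5 with Isotype under the same call. H2-K1 was at 2333 and 2360 CPM with CPI and 950 (95% Poisson interval 654–1334) and 1656 (1267–2128) with Isotype. These Isotype barcodes carried medians of 120.5 and 52 UMIs of their hashtag, against 144 and 75 over all barcodes. Iigp1 was at 258 and 167 CPM with CPI and had no UMI in Isotype, where 3 counts would be 86.4 and 81.5 CPM.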
